A study of Homo sapiens with 6 samples.

Results

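The genes described here are the collapsin response mediator proteins (CRMPs), which are *CRMP1* and *DPYSL2* to *DPYSL5*, and the stathmins *STMN1* to *STMN4*. These 9 genes, 5 of the CRMP and 4 of the stathmin family, were picked by name among 62710 genes of the expression table, and the 2 families were selected on the difference between parental and onvansertib-resistant cells that had already been seen in these same libraries. Their differences between the groups are therefore given as a description, with standard errors and no p-value, and counts of calls among them are read only beside those of all genes. The cells were H526, a line of small cell lung cancer, and RNA was sequenced in 3 libraries of the parental line (numbered 1 to 3) and 3 of an onvansertib-resistant derivative (numbered 7 to 9). The derivative was grown in onvansertib, an inhibitor of the mitotic kinase PLK1, raised from 10 to 75 nM, and only this 1 derived line was sequenced. RNA was taken from each line on 3 occasions, and the labels do not say whether these were separate cultures, so p-values measure only the spread between repeated harvests, which may be technical. The presence of the drug, time in culture and selection of a subclone cannot be told apart in this design, nor can fewer cells of a type and less RNA per cell.

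Microtubules grow and shrink by adding and losing dimers of alpha and beta tubulin. CRMPs bind tubulin dimers and help microtubules to assemble in growing axons. CRMP2, the protein of *DPYSL2*, also carries the signal of semaphorin 3A through neuropilin and plexin receptors to the cytoskeleton. Stathmins work in the other direction: they hold tubulin dimers in a complex and favour the shrinking of microtubules, and phosphorylation releases the dimers, which for stathmin 1 happens as cells enter mitosis. *STMN1* is widely expressed in dividing cells, while *STMN2*, *STMN3* and *STMN4* are mainly neuronal.

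The values are gene counts that the authors normalized with DESeq2. The most frequent low value, taken as that of 1 read, was near 1 in each library. It gave an estimated depth between 22306620 and 28477736 reads, which is rough because the value of 1 read differed between genes. On this scale 3 reads, taken as the limit of detection, averaged 2.84 in the parental and 3.16 in the resistant group. Mitochondrial genes held between 1.47% and 2.83% of the summed values. Epithelial and SCLC markers were high in every library, with *EPCAM* at no less than 5273 and *POU2F3*, the factor that defines the tuft cell-like subtype, at no less than 24511. *NEUROD1* reached at most 5.49, and *PTPRC* and *CD3E* of immune cells were at or under the limit everywhere. The neuroendocrine markers *SYP*, *CHGA* and *INSM1* were lower in every resistant than in every parental library, for example *CHGA* at 254 ± 48.3 in parental and 12.8 ± 3.28 (SD, n = 3 in each group) in resistant cells. Of the 8 markers of other cell types, *COL1A1*, *COL1A2* and *VWF* were above the limit in all libraries and higher in the resistant group, with *COL1A1* between 42.0 and 84.2 in parental and between 229 and 293 in resistant libraries. *PECAM1* was under the limit everywhere. The summed value of all 8 was between 379 and 519 in parental and between 847 and 1041 in resistant libraries. The part of these markers in the results below was not tested.

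The members lie on 7 chromosomes. The stretches before a transcript start of 5 of the genes are shown for the 4 members that were lower in resistant cells and for *DPYSL3*, the most abundant CRMP gene. Sequences are from RefSeq on GRCh38.p14 and run 5′ to 3′ on the strand of the gene. They cover the 250 bases before the start of a reference transcript and stop before its first base. Capitals mark the GC box GGGCGG, the CCAAT box CCAAT, the E-box CAGCTG, the octamer ATGCAAAT, the E2F-type site TTTNGCGC and the left and right parts of the RE1 element, TTCAGCACC and GGACAGCGC, each searched on both strands, where neighbouring GC boxes may overlap. The window of *CRMP1* is chr4:5893087-5893336 (minus strand), that of *DPYSL4* chr10:132186698-132186947 (plus strand), that of *DPYSL5* chr2:26847882-26848131 (plus strand), that of *STMN3* chr20:63652767-63653016 (minus strand) and that of *DPYSL3* chr5:147510069-147510318 (minus strand). For *STMN3* the RefSeq start lies 658 bases from the start of the transcript used for its length, and the other windows end at that start. The windows of *DPYSL5* and *STMN3* lie inside the annotated span of their genes, outside annotated exons. Other transcripts of these genes may therefore start further upstream.
*CRMP1*: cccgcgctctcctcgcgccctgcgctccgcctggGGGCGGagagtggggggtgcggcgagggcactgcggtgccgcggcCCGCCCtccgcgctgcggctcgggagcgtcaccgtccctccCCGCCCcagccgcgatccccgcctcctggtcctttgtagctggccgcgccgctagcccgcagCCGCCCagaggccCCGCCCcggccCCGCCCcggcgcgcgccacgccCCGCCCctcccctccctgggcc
*DPYSL4*: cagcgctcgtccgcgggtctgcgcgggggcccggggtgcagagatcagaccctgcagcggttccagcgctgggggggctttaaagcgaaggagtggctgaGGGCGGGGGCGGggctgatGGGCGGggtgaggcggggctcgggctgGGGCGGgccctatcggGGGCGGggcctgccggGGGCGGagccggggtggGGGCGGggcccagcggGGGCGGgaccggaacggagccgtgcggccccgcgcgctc
*DPYSL5*: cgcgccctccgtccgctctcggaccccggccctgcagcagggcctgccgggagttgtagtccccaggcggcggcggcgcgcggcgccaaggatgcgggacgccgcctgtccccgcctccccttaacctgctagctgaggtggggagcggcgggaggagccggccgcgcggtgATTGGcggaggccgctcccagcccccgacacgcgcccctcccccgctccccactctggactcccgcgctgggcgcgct
*STMN3*: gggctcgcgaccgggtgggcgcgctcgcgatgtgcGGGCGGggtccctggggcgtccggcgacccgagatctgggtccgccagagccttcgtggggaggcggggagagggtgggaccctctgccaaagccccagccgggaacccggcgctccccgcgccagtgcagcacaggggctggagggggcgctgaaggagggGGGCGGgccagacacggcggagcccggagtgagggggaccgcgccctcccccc
*DPYSL3*: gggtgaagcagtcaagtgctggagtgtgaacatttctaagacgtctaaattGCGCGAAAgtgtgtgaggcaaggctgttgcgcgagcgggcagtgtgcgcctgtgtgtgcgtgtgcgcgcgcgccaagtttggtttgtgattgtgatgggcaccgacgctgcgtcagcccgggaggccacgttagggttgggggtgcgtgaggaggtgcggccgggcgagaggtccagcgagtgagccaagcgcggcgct

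*DPYSL4* held 8 GC boxes, *CRMP1* 7 and *STMN3* 2, while *DPYSL5* and *DPYSL3* held 0. At least 1 GC box was found in 42.6% of 34788 promoters of the same length. The G and C content was 82.8% before *CRMP1*, 80.0% before *DPYSL4* and 78.0% before *DPYSL5* and *STMN3*, 73.2% before *STMN1* and 62.8% before *DPYSL3*, against a median of 58.0% over all promoters. The window of *DPYSL3* held 1 E2F-type site at position -199, counted back from the transcript start, a match that 1.49% of all promoters have. The window of *STMN1*, which is not printed, held 3 GC boxes, 1 CCAAT box and 1 E2F-type site at position -38. It lies inside the annotated span of the gene. Its last 47 bases, which include that E2F-type site, fall in annotated exons. *DPYSL5* held 1 CCAAT box, which 32.0% of promoters have. The E-box, the octamer and the RE1 parts, which occur in 14.0%, 1.62%, 0.290% and 0.428% of all promoters, were found in none of these 6 windows. A match is a description of letters, and no binding was measured.

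Among the CRMP genes, *DPYSL4*, *CRMP1* and *DPYSL5* were lower in resistant than in parental cells, *DPYSL3* was slightly higher and *DPYSL2* overlapped between the groups. Among the stathmins, *STMN3* was lower, *STMN1* overlapped, and *STMN2* and *STMN4* were not detected. Over all genes, 16347 averaged 10 or more and were tested with limma on log2(value + 1). Of these 37.7% had a Benjamini-Hochberg adjusted p under 0.05 and are referred to as called, 17.8% higher and 19.8% lower in resistant cells, and in 49.9% the groups were free of overlap. Of the 9 members 7 passed this minimum and entered the fit, 4 were called lower, 1 was called higher and 2 were not called, and the groups were free of overlap in the 5 called members. The median log2 fold change of the 7 was -0.48, beside a median of 0.00 over all genes tested. Since the families were chosen on this contrast, nothing is read from these counts.

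**Figure D1:**
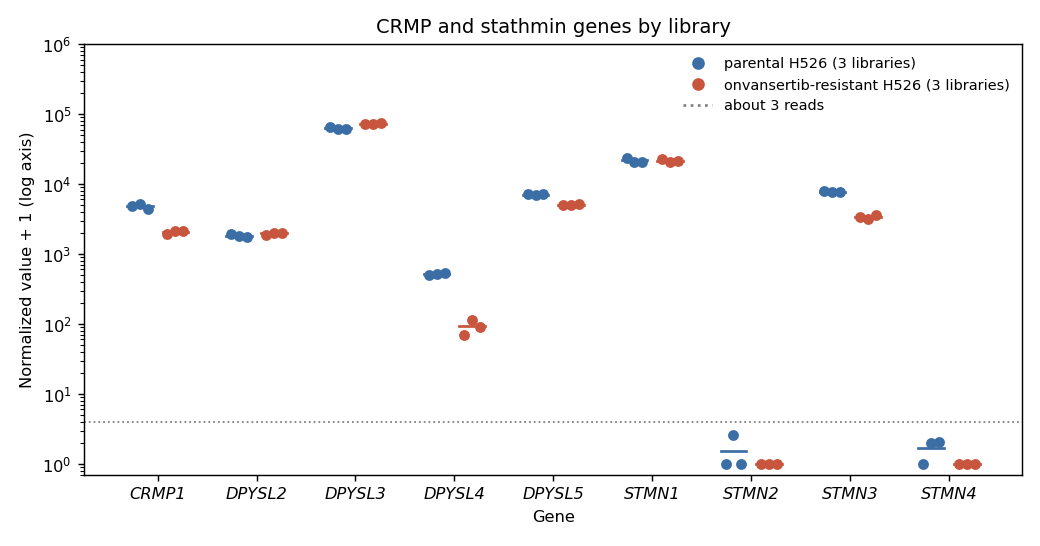
Normalized value plus 1 on a log axis for each of the 9 genes, with 1 point per library, parental in blue and resistant in red, lines at the group means and a dotted line at about 3 reads. *DPYSL3* and *STMN1* are the highest in both groups, *DPYSL4* shows the widest gap between groups, and all points of *STMN2* and *STMN4* lie under the line.

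*DPYSL4* (ENSG00000151640, chromosome 10, 132186948 to 132205759 of GRCh38, plus strand) encodes CRMP3, the least abundant of the CRMPs in these cells. Its normalized value was 493, 511 and 542 in parental libraries 1, 2 and 3 and 69.7, 115 and 89.6 in resistant libraries 7, 8 and 9. The highest resistant library was thus far below the lowest parental one. The resistant mean of 91.3 ± 22.6 was 17.7% of the parental mean of 516 ± 24.9 (SD, n = 3 in each group). The log2 fold change was -2.51, with a standard error of 0.18. The spread between libraries relative to the mean was wider in resistant cells, 24.7% against 4.83%. By log2 fold change *DPYSL4* stood at place 151 from the lowest of the 16347 genes tested.

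*CRMP1* (ENSG00000072832, chromosome 4, 5748084 to 5893086, minus strand) encodes a mediator of semaphorin 3A signals. It was at 4785, 5165 and 4376 in the parental libraries and at 1925, 2163 and 2121 in the resistant ones. The groups were well apart, with a resistant mean of 2069 ± 127 (SD, n = 3) that was 43.3% of the parental 4775 ± 395 (SD, n = 3). The log2 fold change was -1.20 (standard error 0.08). *DPYSL5* (ENSG00000157851, chromosome 2, 26847747 to 26950351, plus strand) encodes CRMP5, the most distant member of the family. It was at 7260, 6873 and 7076 in parental and at 4950, 5064 and 5145 in resistant libraries. This was a smaller difference with a narrow spread: 5053 ± 97.9 against 7070 ± 194 (SD, n = 3), or 71.5% of the parental mean. The log2 fold change was -0.48, with a standard error of 0.06.

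*DPYSL3* (ENSG00000113657, chromosome 5, 147390808 to 147510068, minus strand) encodes CRMP4, which binds both microtubules and actin filaments. It had by far the highest values of the family, 65276, 61647 and 60931 in parental and 71931, 71245 and 74285 in resistant libraries. Every resistant library was above every parental one, by a small step: the resistant mean of 72487 ± 1594 was 1.16 times the parental mean of 62618 ± 2330 (SD, n = 3). The log2 fold change was 0.21, with a standard error of 0.06. Its call was lost without parental library 3 (log2 fold change 0.19), without resistant library 7 (0.22) or 9 (0.19), without the intensity trend (0.21), and after subtraction of the median change of its neighbours (0.08). *DPYSL2* (ENSG00000092964, chromosome 8, 26514031 to 26658178, plus strand), the gene of CRMP2, was at 1954, 1798 and 1748 in parental and at 1896, 2001 and 2022 in resistant libraries. Resistant library 7 lay below parental library 1, so the groups overlapped, and the log2 fold change was 0.11 (standard error 0.07).

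*STMN1* (ENSG00000117632, chromosome 1, 25884181 to 25906991, minus strand) encodes stathmin 1, a tubulin-sequestering protein under the control of mitotic and growth factor kinases. It was at 23762, 20726 and 20585 in parental and at 22491, 20506 and 21174 in resistant libraries. The ranges overlapped and the means, 21691 ± 1795 and 21390 ± 1010 (SD, n = 3), were apart by less than either SD. The log2 fold change was -0.02 (standard error 0.07). *STMN3* (ENSG00000197457, chromosome 20, 63639705 to 63657682, minus strand), which encodes the neuronal SCG10-like protein SCLIP, was at 8039, 7638 and 7700 in parental libraries. In resistant libraries it was at 3362, 3187 and 3553. The groups were far apart, with a resistant mean of 3367 ± 183 that was 43.2% of the parental mean of 7792 ± 216 (SD, n = 3). The log2 fold change was -1.21, with a standard error of 0.06. *STMN2* (ENSG00000104435, chromosome 8, 79611117 to 79666158, plus strand), the gene of SCG10 in neurons, was at 1.58 in parental library 2 and listed at 0 in the other 5 libraries. *STMN4* (ENSG00000015592, chromosome 8, 27235308 to 27258420, minus strand) was at 1.02 and 1.04 in parental libraries 2 and 3 and listed at 0 elsewhere. Both were under the limit of 3 reads in all 6 libraries, so neither was detectable at this depth and no fold change is given.

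**Figure D2:**
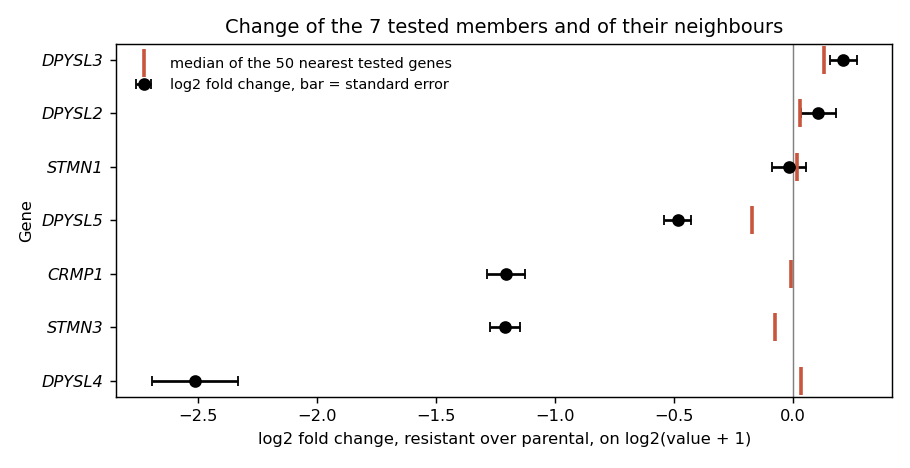
Log2 fold change of resistant over parental cells on the log2(value + 1) scale for the 7 tested members (points, with bars for the standard error). Red ticks give the median log2 fold change of the 50 tested genes nearest in gene order on the same chromosome. *DPYSL4* is lowest at -2.51, *STMN3* and *CRMP1* lie near -1.2, and the ticks lie between -0.17 and 0.13.

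Levels of different genes were compared per kilobase of transcript. In parental cells *STMN1* had the highest level, 15032 ± 1244 per kb, followed by *DPYSL3* at 11402 ± 424, *STMN3* at 3466 ± 95.9, *CRMP1* at 1504 ± 124, *DPYSL5* at 1365 ± 37.4, *DPYSL2* at 382 ± 22.5 and *DPYSL4* at 194 ± 9.35 (SD, n = 3). The neighbours *CRMP1* and *DPYSL5* differed by less than the sum of their SDs, and the other neighbours in this order were further apart. *STMN1* stood at place 69 and *DPYSL3* at place 104 from the top of 13532 protein-coding genes tested. In resistant cells the order of *CRMP1* and *DPYSL5* was the other way, 652 ± 40.1 and 976 ± 18.9 per kb, and *STMN1* and *DPYSL3* came closer, 14824 ± 700 and 13199 ± 290 per kb (SD, n = 3). *DPYSL4* was at 34.3 ± 8.47 per kb there, at place 11048. The length is that of 1 reference transcript per gene, so a shift between transcripts of a gene would change these levels.

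The summed level of the 5 CRMP genes per kb was 14847 ± 498 in parental and 15272 ± 321 in resistant cells (SD, n = 3), and the ranges over libraries overlapped. Within that sum *DPYSL3* took 76.8% ± 0.590 in parental and 86.4% ± 0.447 in resistant cells, while *CRMP1* took 10.1% ± 0.789 and 4.27% ± 0.247, *DPYSL5* 9.20% ± 0.253 and 6.39% ± 0.0785, *DPYSL2* 2.57% ± 0.0652 and 2.69% ± 0.0714, and *DPYSL4* 1.31% ± 0.105 and 0.225% ± 0.0565 (SD, n = 3). The stathmin sum was 18499 ± 1338 per kb in parental and 16321 ± 729 in resistant cells, with no overlap between libraries. *STMN1* made up 81.2% ± 0.821 of it in parental and 90.8% ± 0.494 in resistant cells (SD, n = 3), and *STMN3* almost all of the rest.

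**Figure D3:**
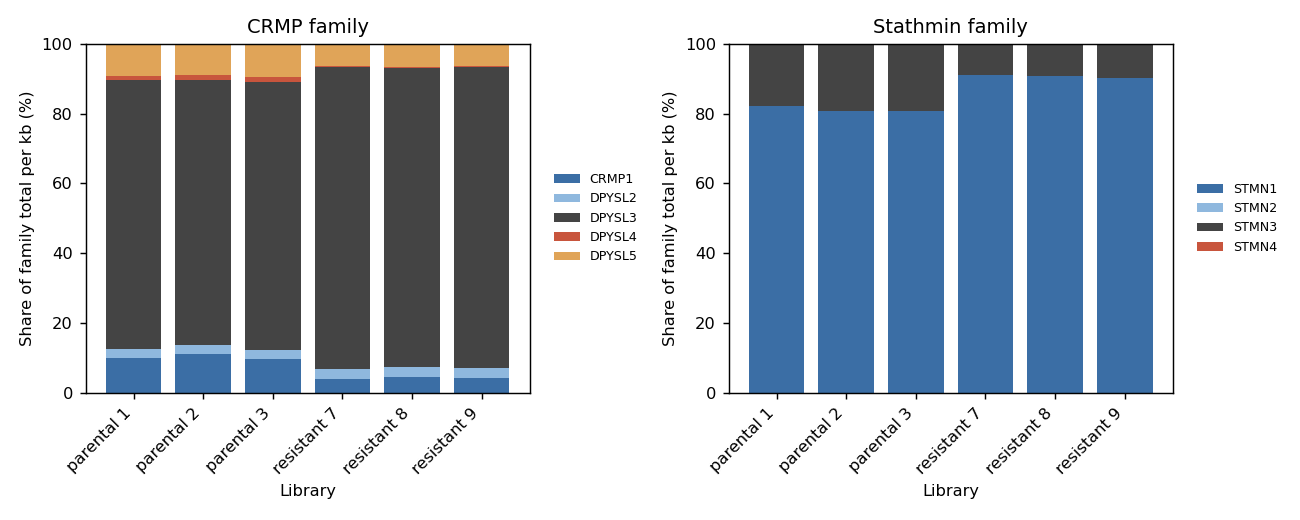
Share of each gene in the summed level per kb of the CRMP family (left) and the stathmin family (right), in percent, with 1 stacked bar per library. *DPYSL3* fills 76.1% to 77.2% of the CRMP bars in parental and 86.0% to 86.8% in resistant libraries, and *STMN1* 80.6% to 82.2% and 90.3% to 91.2% of the stathmin bars.

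Reads may pass between similar genes where their sequences are the same or nearly so. The coding sequences of the CRMP genes were between 49.95% and 70.9% identical over 10 pairs, with *CRMP1* and *DPYSL2* the closest, and those of the stathmins between 47.4% and 70.2% over 6 pairs. The longest run of identical bases between the reference transcripts of 2 members was 34 bases, for *CRMP1* and *DPYSL2*, and at most 20 bases between stathmins. Other transcripts were not compared, and how many reads passed between members was not tested. The processed pseudogenes *STMN1P1* and *STMN1P2* were listed at 0 in every library. *CRMP1* overlaps *EVC*, on the opposite strand, which was higher in resistant cells (562 and 822 on average, log2 fold change 0.55, adjusted p = 0.00240 by limma), and *DPYSL2* overlaps the start of *PNMA2*, which runs the other way (115 and 228, log2 fold change 1.01, adjusted p = 0.00321 by limma). The counting is not stated to use strand, so reads in these overlaps are uncertain.

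The 50 tested genes nearest to each member in gene order were taken equally from both sides, except near a chromosome end. Their median log2 fold change was -0.01 around *CRMP1*, 0.03 around *DPYSL4*, -0.08 around *STMN3*, -0.17 around *DPYSL5*, 0.13 around *DPYSL3*, 0.03 around *DPYSL2* and 0.02 around *STMN1*. Relative to these medians the change was -1.20 for *CRMP1*, -2.54 for *DPYSL4*, -1.14 for *STMN3* and -0.31 for *DPYSL5*. For *DPYSL3*, *DPYSL2* and *STMN1* it was 0.08, 0.08 and -0.04, and *DPYSL3* lost its call there. Around *DPYSL5* 15 of the 50 genes were called lower and 5 higher, beside 19.8% lower and 17.8% higher over all genes tested.

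The CRMP genes *CRMP1*, *DPYSL3* and *DPYSL4* each lie between 1 gene of the STK32 kinase family and 1 of the JAKMIP family, named for binding Janus kinases and microtubules. These 6 neighbours were picked with their values known. All 3 JAKMIP genes were lower in resistant cells by limma. *JAKMIP1*, 133 kb from *CRMP1*, was at 195, 355 and 304 in parental and at 95.8, 112 and 93.7 in resistant libraries (log2 fold change -1.45, adjusted p = 0.000610 by limma). *JAKMIP2*, 75.4 kb from *DPYSL3*, was at 94.6, 85.5 and 129 in parental and at 19.8, 37.2 and 22.5 in resistant libraries (log2 fold change -1.95, adjusted p = 0.000679 by limma). *JAKMIP3*, 2.09 kb from *DPYSL4*, had means of 76.5 ± 23.9 and 32.1 ± 9.23 (SD, n = 3), with no overlap (log2 fold change -1.22, adjusted p = 0.0113 by limma). The kinase genes did not move as one: *STK32B* beside *CRMP1* was higher in resistant cells (log2 fold change 0.85, adjusted p = 0.00199 by limma), *STK32C* beside *DPYSL4* was lower (-0.49, adjusted p = 0.00852 by limma), and *STK32A* beside *DPYSL3* was not called (0.48, adjusted p = 0.26 by limma). 

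**Figure D4:**
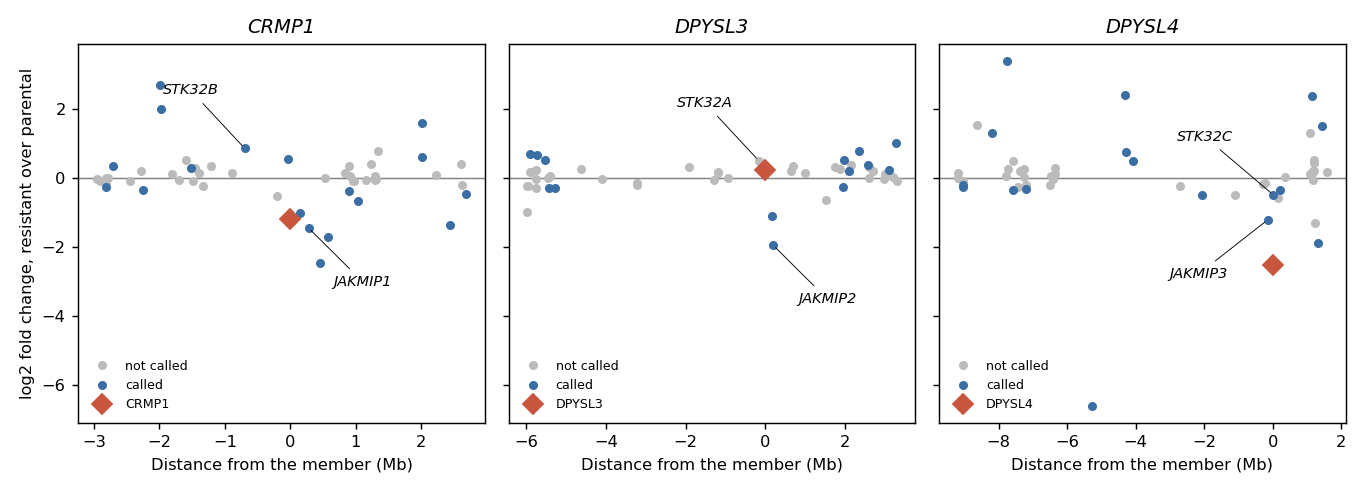
Log2 fold change of resistant over parental cells against the distance in Mb from *CRMP1*, *DPYSL3* and *DPYSL4* (red diamonds). Points are the 50 tested genes nearest to each in gene order, blue where called by limma and grey otherwise. *JAKMIP1*, *JAKMIP2* and *JAKMIP3* lie at -1.45, -1.95 and -1.22 beside members at -1.20, 0.21 and -2.51.

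For each tested member the gene outside both families with the most similar course over the 6 libraries was sought by the root mean square difference of mean-centred log2 values. For *CRMP1* it was *MAP2*, the main microtubule-associated protein of dendrites, with a difference of 0.0446 (Pearson r = 0.999 over 6 libraries). *MAP2* was at 491, 510 and 437 in parental and at 178, 217 and 205 in resistant libraries. For *DPYSL4* it was *IGSF21*, a synaptic adhesion protein, at 432 ± 19.4 and 74.2 ± 15.8 (SD, n = 3), and for *STMN3* it was *ERGIC1*, at 2747 ± 23.0 and 1139 ± 28.8 (SD, n = 3), with differences of 0.0748 and 0.0436. *DPYSL5* went with *ZBTB18*, *DPYSL3* with *JUP*, *DPYSL2* with *FOXJ3* and *STMN1* with *GTF2E2*, all with a difference of at most 0.0218. *JUP* was at 0.20 and *ZBTB18* at -0.47 on the log2 fold change scale, and at 0.04 and -0.31 relative to their neighbours. For the members whose groups were apart, the likeness rests mostly on the size of the difference between the 2 groups. For *DPYSL2* and *STMN1*, whose groups overlapped, it also rests on the variation between libraries of a group. The likeness carries no test.

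The genes around the members were grouped by role, in lists written from general knowledge but with earlier results of these data known. Of 131 genes in 10 lists 120 were tested, and 19 were called higher and 29 lower in resistant cells by limma, 40.0% of those tested beside 37.7% of all genes. Of 15 tested genes of the semaphorin receptor and CRMP partners 2 were higher and 4 lower, with a median log2 fold change of 0.02. *NRP1*, the binding receptor neuropilin 1, was at 4331, 3592 and 4002 in parental and at 1148, 1225 and 1363 in resistant libraries (log2 fold change -1.67, adjusted p = 1.1e-06 by limma). The ligand gene *SEMA3A* fell from 565 ± 37.6 to 311 ± 9.97 (SD, n = 3, log2 fold change -0.86, or -0.50 relative to its neighbours, adjusted p = 0.000168 by limma) and the kinase gene *FYN* fell too (log2 fold change -0.69, adjusted p = 0.000534 by limma). The signalling receptor gene *PLXNA2* rose (log2 fold change 0.77, adjusted p = 0.000269 by limma), while *PLXNA1* and *PLXNA3* were not called and *PLXNA4* was listed at 0. The count of higher genes in this list was 1 when any library except parental 1 was left out.

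Of 27 tested kinases and phosphatases that act on CRMPs or stathmins 6 were higher and 7 lower, with a median log2 fold change of 0.05. Cyclin-dependent kinase 5, which phosphorylates CRMPs as a priming step for GSK3, was lower together with its activators: *CDK5* was at 1312 ± 69.0 in parental and 743 ± 47.7 (SD, n = 3) in resistant cells (log2 fold change -0.82, or -0.31 after the median change of its 50 neighbours was subtracted, adjusted p = 6.0e-05 by limma) and *CDK5R1* was also called lower (log2 fold change -0.37, adjusted p = 0.00389 by limma). *CDK5R2*, the second activator, was at 157, 145 and 130 in parental libraries and at 2.09, 3.12 and 4.31 in resistant libraries, where libraries 7 and 8 did not exceed 3 reads (adjusted p = 3.4e-06 by limma). *GSK3A* and *GSK3B* were not called, with log2 fold changes of -0.14 and 0.12. *DYRK1A*, a dual-specificity kinase, was at 2286 ± 139 in parental and 5271 ± 633 in resistant cells, and *CAMK2D* at 1199 ± 25.4 and 2364 ± 66.2 (SD, n = 3), with adjusted p of 9.0e-06 and 4.5e-06 by limma. *DYRK1A* had a log2 fold change of 1.20, and of 0.39 relative to its neighbours. The mitotic stathmin kinase gene *CDK1* was not called (log2 fold change -0.05), and *AURKB* was called lower (log2 fold change -0.49, adjusted p = 0.00191 by limma).

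Among 17 tested microtubule-associated proteins 2 were higher and 3 lower, with a median log2 fold change of 0.04. The count of higher genes was 1 when any library except parental 1 was left out, and 0 relative to neighbours. *MAP2* had a log2 fold change of -1.26, *MAP1A* one of -0.51 and *MAP7D2* one of -0.39 (adjusted p = 5.4e-05, 0.00623 and 0.00149 by limma), *DCLK1* was higher by 0.47 (adjusted p = 0.00378 by limma), and *DCX* of young neurons was under the limit. Relative to their neighbours *MAP1A* was at -0.77 and *DCLK1* at 0.18, where the latter was no longer called. *MAPT*, the gene of tau, was not called, with 1117 ± 122 in parental and 1317 ± 130 (SD, n = 3) in resistant cells. Of 15 tested genes of plus ends and microtubule length 1 was higher and 3 lower. *MAPRE3*, the gene of the end-binding protein EB3, which lies 20.3 kb from *DPYSL5*, fell from 295 ± 9.26 to 178 ± 10.9 (SD, n = 3, log2 fold change -0.73, adjusted p = 0.00152 by limma), while *MAPRE2* rose (log2 fold change 0.41, adjusted p = 0.0122 by limma). *CLIP1* and *KIF18B* had log2 fold changes of -0.46 and -0.23 (adjusted p = 0.00158 and 0.0357 by limma). Relative to its neighbours *CLIP1* turned to 0.11 and was not called, while *KIF18B* was at -0.50 there but lost its call in 8 of 14 alternatives, among them the omission of any single library except resistant 9. Without parental library 3 no gene of this list was called higher, since *MAPRE2* lost its call.

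Tubulin folding factors, which build the dimers that both families bind, were lower in 4 of 7 tested genes and higher in 0, with a median log2 fold change of -0.29. *TBCB* fell from 5343 ± 92.6 to 3251 ± 60.8 (SD, n = 3, log2 fold change -0.72, adjusted p = 1.1e-05 by limma), and *TBCA*, *TBCC* and *ARL2* had log2 fold changes of -0.40, -0.43 and -0.29 (adjusted p = 0.000933, 0.00244 and 0.0290 by limma). *ARL2* lost its call relative to its neighbours, at -0.16, and without parental library 2 or 3 or resistant library 7 or 8. None of 8 severing genes was called in either direction, with log2 fold changes between -1.11 and -0.02 and 1 of the 8 at an unadjusted p under 0.05. A single severing gene was called lower without parental library 1 or with local median centring. Of 17 tested genes of tubulin modification 4 were higher and 2 lower, *VASH1*, *TTLL1* and *TTLL7* with log2 fold changes of 0.82, 0.82 and 0.47 and the tyrosine ligase gene *TTL* with one of -0.41 (adjusted p = 0.00575, 0.00556, 0.00285 and 0.0131 by limma). The count of lower genes was 0 without resistant library 7 and 1 without parental library 2 or 3 or resistant library 8, and that of higher genes was 2 relative to neighbours, where *VASH1* was at 0.50 and not called.

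Of 7 tested genes of the neuronal cytoskeleton 5 were lower and 1 higher, with a median log2 fold change of -0.40. *BASP1*, an axon growth protein, was at 2967 ± 182 in parental and 1174 ± 175 in resistant cells, and *INA*, the filament protein alpha-internexin, at 1076 ± 162 and 494 ± 24.1 (SD, n = 3), with adjusted p of 1.1e-05 and 5.5e-05 by limma. *BASP1* had a log2 fold change of -1.35, and of -0.88 relative to its neighbours. *MARCKS* fell (log2 fold change -0.40, adjusted p = 0.000471 by limma). *NES*, the gene of nestin in progenitor cells, rose from 295 ± 34.0 to 571 ± 63.3 (SD, n = 3, adjusted p = 0.000332 by limma). Of the regulators, *REST*, a repressor of neuronal genes, was at 940, 804 and 941 in parental and at 1495, 1321 and 1361 in resistant libraries (log2 fold change 0.64, adjusted p = 0.000447 by limma). *E2F1* fell (log2 fold change -0.29, adjusted p = 0.00391 by limma), and *FOXM1* and *TARDBP*, whose protein keeps the *STMN2* transcript intact, were not called, with log2 fold changes of -0.06 and -0.17. Of the listed relatives outside both families, *DPYS* was at 0 in every library. *CAD*, an enzyme of pyrimidine synthesis, and *STMND1* were higher by 0.30 and 1.41 on the log2 scale (adjusted p = 0.0124 and 0.0353 by limma). *STMND1* rose from only 5.07 ± 1.35 to 15.2 ± 3.92 (SD, n = 3). *CAD* was at 0.48 relative to its neighbours, and *STMND1*, at 0.73 with a pseudocount of 10, lost its call or its place in the fit when any library except parental 2 was left out.

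**Figure D5:**
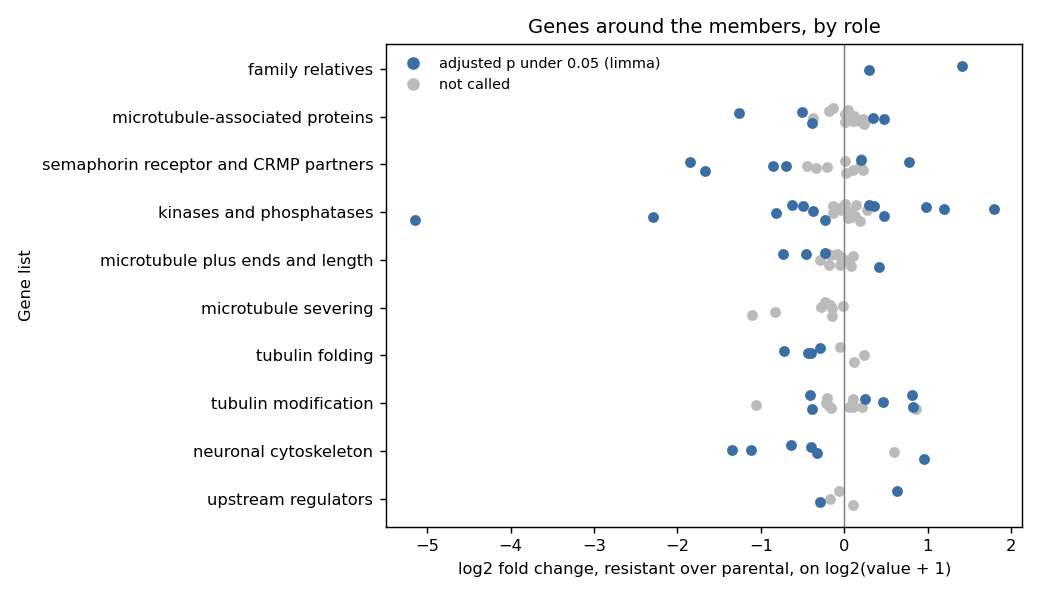
Log2 fold change of resistant over parental cells on the log2(value + 1) scale for 120 tested genes in 10 lists by role, with 1 point per gene, blue where limma gave an adjusted p under 0.05 and grey otherwise. Blue points of tubulin folding lie below 0 only, 5 of 6 blue points of the neuronal cytoskeleton lie below 0, and the far left point among the kinases is *CDK5R2* at -5.15, a value that depends on the pseudocount.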

How the data were processed

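RNA of 3 parental and 3 resistant H526 libraries was compared. Per the labels and methods, reads were trimmed with Trimmomatic 0.38, aligned with STAR and quantified into gene counts with RSEM 1.3.1 on GRCh38 with Gencode v43. The authors normalized these counts with DESeq2, and the deposited values are this normalized signal per gene and library. The value of 1 read differed between genes, and between 33.4% and 59.2% of low values lay within 0.02 reads of a whole number, so counts could not be rebuilt and count models were not applied. Of 62757 rows, 47 second copies of pseudoautosomal genes were left out. Symbols, positions and transcript lengths came from Gencode v44. Genes averaging 10 or more entered limma 3.58.1 (R 4.3.3) as log2(value + 1), fitted on group alone with a trend on intensity, and p-values were adjusted by Benjamini-Hochberg over all of them with a threshold of 0.05. Fold changes on this scale understate those of low genes. The fit was tested on simulated data. Alternatives were pseudocounts of 0.1 and 10, no minimum, a minimum of 50, TMM scaling, quantile normalization, no trend, local median centring over 50 neighbours, and each library left out in turn.

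The members and lists were chosen with earlier results of these data known. Named were all 9 members, up to 4 called genes with the smallest p of each list, all genes of lists with at most 5, *REST* and *TARDBP*, and the most similar gene of each tested member. Other list genes (*PLXNA1*, *PLXNA3*, *PLXNA4*, *CDK5R1*, *GSK3A*, *GSK3B*, *CDK1*, *AURKB*, *DCX* and *MAPT*) and neighbours were named after their values were seen. The values of 2 listed genes are not reported here. Motifs were searched in RefSeq promoters. Python 3.11.15 was used with numpy 2.4.6 and pandas 2.3.3.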

Additional observations from a re-analysis of the deposited data

How the results depend on the processing

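The 4 lower members, *DPYSL4*, *CRMP1*, *STMN3* and *DPYSL5*, were called lower under all 14 alternatives, on the libraries by which the families were chosen, so this supports nothing about them. Their log2 fold changes ranged from -2.69 to -2.33, from -1.27 to -1.15, from -1.25 to -1.14 and from -0.50 to -0.31, the last value each of *STMN3* and *DPYSL5* with local median centring. *DPYSL3* ranged from 0.08 to 0.24 and *DPYSL2* from 0.07 to 0.15, while *STMN1* changed sign within its range of -0.05 to 0.12. The number of members called higher was 0 without the trend and 0 with local median centring, and between 0 and 1 when a library was left out. The genes of all lists called higher were between 12 and 21 when a library was left out, the lowest without parental library 3, beside 19 with all libraries. All genes called were between 4784 and 5618 in those fits. Of 45 called genes named outside the members 35 stayed called under all alternatives. *CLIP1* had a log2 fold change of 0.11 in place of -0.46 with local median centring, which also ended the calls of *DCLK1*, *VASH1*, *JUP*, *ARL2* and *STMND1*. The calls of *ARL2*, *KIF18B*, *JUP* and *STMND1* were lost or could not be tested in at least 6 alternatives each. The call of *CAD* was lost without the trend, and those of *TTL* and *MAPRE2* without it and without resistant library 7 and parental library 3, respectively. *FOXM1* was called lower with local median centring, and *TARDBP* with it and without resistant library 7. The cause was not tested. No paired analysis was run, because the labels name no pairs and the groups share no replicate number. The paper calls the parental and resistant cells matched, and whether libraries were paired by harvest is not stated. Precision is limited by 3 libraries per group, and a value under 3 reads, as for *STMN2* and *STMN4*, was not detectable. Groups of 3 are too small for a test of a single library that stands apart.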
